A study of Mus musculus with 4 samples.

Results

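The genes described here are 34 genes of antigen presentation by the major histocompatibility complex (MHC), the system that displays peptides on the cell surface for T cells to read. They are defined by name and pathway, with no measured value in the rule, though the list was drawn up with earlier results of these data known. They comprise 14 genes of the class II pathway and 20 genes of class I presentation, peptide loading and the immunoproteasome. Each gene is represented by the probe set whose platform annotation names that gene alone, and where several do so by the one with the highest mean level. This gave a value to 29 of the 34 genes, 12 on the class II side and 17 on the class I side, among 19938 genes measured in all. H2-DMb1, H2-DMb2, H2-D1, H2-K1 and H2-T23 have probe sets annotated to more than 1 gene only, so they carry no value here, and the class I heavy chains H2-D1 and H2-K1 are therefore not analysed.

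Expression was measured in total RNA on 4 single-channel Affymetrix gene arrays. The wild type group comprised 2 arrays of CD4+ splenocytes from C57BL/6 mice, and the lymphoma group comprised 2 arrays of CD4+ lymphoma cells from the spleen of C57BL/6 mice with both copies of Tet2, the gene of a DNA demethylation enzyme, carrying a gene trap. Such a trap interrupts a transcript through an inserted cassette, and the lymphoma mice alone carried it, so genotype and malignancy cannot be told apart. In both groups a biotinylated CD4 antibody and streptavidin microbeads held the cells on a magnetic column, a procedure that enriches cells and leaves a share of others. The purity reached and the age of the mice were not used here. The labels number the samples without saying whether they came from separate animals, so p-values measure the spread between these samples.

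MHC class II molecules are pairs of an alpha and a beta chain that carry peptides from endocytosed protein to CD4+ T cells. They are assembled with the invariant chain, loaded with peptide under the control of the DM and DO molecules, and transcribed where the coactivator CIITA joins factors that sit on the X and Y boxes of their promoters. In the mouse spleen they are made chiefly by B cells, dendritic cells and macrophages, and resting mouse T cells make little. Class I molecules are present on nearly all nucleated cells and carry peptides that the proteasome has cut, the TAP transporter has moved into the endoplasmic reticulum and the peptide-loading complex has fitted to the groove.

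Intensities are the authors' deposited linear values, and differences are lymphoma minus wild type on the log2 scale. Array medians over all probe sets ran from 129.8 on lymphoma array 2 to 141.8 on wild type array 1. Tet2 had intensities of 980 and 1016 on the wild type arrays and of 596 and 399 on the lymphoma arrays, a difference of -1.03 (SE 0.24, limma adjusted p = 0.0771). Both lymphoma values were lower, and the difference did not pass the test used for all genes. The T cell receptor chains Cd3e and Cd3g were bright on all 4 arrays (5806 to 7720 for Cd3e), and Cd4 lay between 4552 and 7134. A gene was called at an adjusted p under 0.05 in limma, with Benjamini-Hochberg adjustment over the 19938 genes. By this rule 2.46% of all genes were lower and 1.82% were higher in lymphoma.

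Class II genes fell in lymphoma, and class I and processing genes did not pass the test in either direction. Of 12 measured class II members, 7 fell and none rose, against 2.46% and 1.82% of all genes. Of 17 measured class I and processing members, none was called by limma, and 3 had an unadjusted p under 0.05 (Canx, Calr and Cd1d1), as had 3119 of all 19938 genes. The median log2 difference was -1.54 over the class II members, 0.27 over the class I and processing members and -0.04 over all genes. The lymphoma values lay below both wild type values for 9 of the 12 class II members and 2 of the 17 class I and processing members, as they did for 23.5% of all genes. They lay above both wild type values for 2 of the 12 class II members and 8 of the 17 class I and processing members, as they did for 20.6% of all genes. The difference between the sides is a description, since no test was made over the members together. All 7 calls were lost with 1 wild type array left out, whichever it was, as were all 852 calls of the whole table, and the spread then comes from the lymphoma pair alone. The adjusted p of the 7 genes then lay between 0.116 and 0.247 without wild type array 1 and between 0.0695 and 0.15 without wild type array 2. All 7 passed when either lymphoma array was left out, where a single lymphoma array stands for the group and is assumed to vary like the wild type pair.

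**Figure D1:**
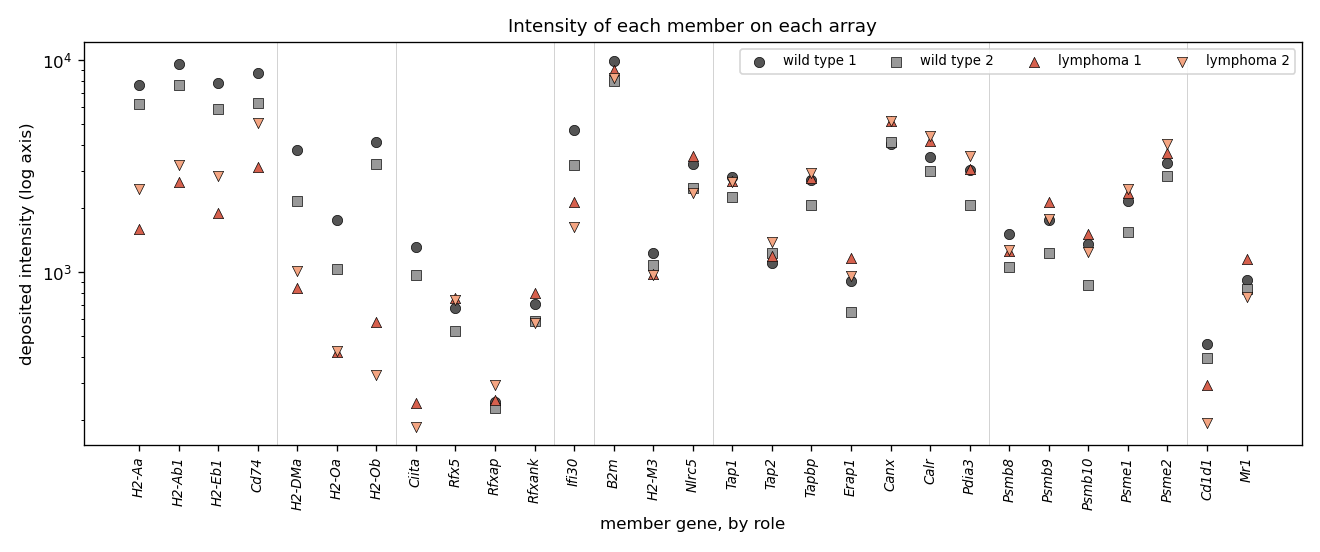
Deposited intensity of each of the 29 measured members (log axis) on the 4 arrays, with genes in order of role and grey lines between roles. For the class II chains, the DM and DO chains, Ciita, Ifi30, H2-M3 and Cd1d1 both lymphoma arrays (triangles) lie below both wild type arrays, while B2m and the transporter genes overlap.

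All 4 class II chains were lower in lymphoma, and 3 of them fell. H2-Aa, the alpha chain of the I-A molecule, had intensities of 7672 and 6196 on the wild type arrays and of 1602 and 2468 on the lymphoma arrays. H2-Ab1, the beta chain of I-A, had 9631 and 7610 in wild type and 2663 and 3209 in lymphoma. H2-Eb1, the beta chain of I-E, had 7778 and 5880 in wild type and 1911 and 2843 in lymphoma. For all 3 chains the groups did not overlap, and lymphoma array 1 was the lowest array. The differences were -1.79 for H2-Aa (SE 0.24, 3.47-fold lower, limma adjusted p = 0.0147), -1.55 for H2-Ab1 (SE 0.18, adjusted p = 0.00988) and -1.54 for H2-Eb1 (SE 0.24, adjusted p = 0.024). The 95% confidence intervals of these chains, from -2.38 to -1.20 for H2-Aa, from -1.99 to -1.11 for H2-Ab1 and from -2.13 to -0.95 for H2-Eb1, covered one another's estimates. Cd74, the invariant chain that fills the groove of new class II molecules and guides them to endosomes, had 8742 and 6278 in wild type and 3120 and 5034 in lymphoma. It was lower on both lymphoma arrays, but its difference of -0.90 (SE 0.27, 95% confidence interval -1.56 to -0.24, limma adjusted p = 0.16) did not pass. The difference was -1.25 with array 2 of the lymphoma group left out and -0.56 with array 1 left out.

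The chains of the peptide-editing molecules fell as well. H2-DMa, the alpha chain of DM, which exchanges the invariant chain fragment for peptide, had 3760 and 2162 in wild type and 846 and 1014 in lymphoma. H2-Oa, the alpha chain of DO, a molecule that restrains DM, had 1771 and 1040 in wild type and 421 and 423 in lymphoma. H2-Oa was nearly even between the lymphoma arrays, and H2-DMa was higher on lymphoma array 2 by 0.26 on the log2 scale. Both genes were more uneven between the wild type arrays, where array 2 was the lower. Their differences were -1.62 (SE 0.29, adjusted p = 0.034 in limma) and -1.69 (SE 0.28, adjusted p = 0.0267). H2-Ob, the beta chain of DO, had 4109 and 3237 in wild type and 579 and 329 in lymphoma. Its difference of -3.06 (SE 0.30, 8.36-fold lower, limma adjusted p = 0.00608) was the lowest among the members and ranked 44 from the lowest of 19938 genes. The confidence interval of H2-Ob, from -3.79 to -2.34, did not reach the estimate of its partner H2-Oa, and whether the falls of these 2 genes differ was not tested.

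Among the regulators, Ciita fell and the RFX genes did not pass the test. Ciita, the class II transactivator, had intensities of 1312 and 969 in wild type and of 242 and 186 in lymphoma. The groups did not overlap, and the difference was -2.41 (SE 0.24, 5.31-fold lower, limma adjusted p = 0.00627), with a rank of 104 from the lowest. The 3 subunits of the RFX complex, which binds the X box, gave other values. Rfx5 had 675 and 530 in wild type and 757 and 741 in lymphoma, a difference of 0.32 (95% confidence interval -0.16 to 0.80, adjusted p = 0.556). Rfxap differed by 0.19 (-0.25 to 0.63) and Rfxank by 0.07 (-0.49 to 0.63), and under quantile normalization Rfxank was at -0.01. The intervals of all 3 leave out a fall of the size of that of Ciita. Ifi30, the lysosomal thiol reductase that unfolds disulfide-bonded protein before class II loading, had 4661 and 3212 in wild type and 2151 and 1641 in lymphoma. Both lymphoma values were lower, with a difference of -1.04 (SE 0.24, limma adjusted p = 0.0774) that did not pass. It passed under quantile normalization (-1.13, limma adjusted p = 0.0387), and its difference ran from -1.31 to -0.77 with 1 array left out.

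**Figure D2:**
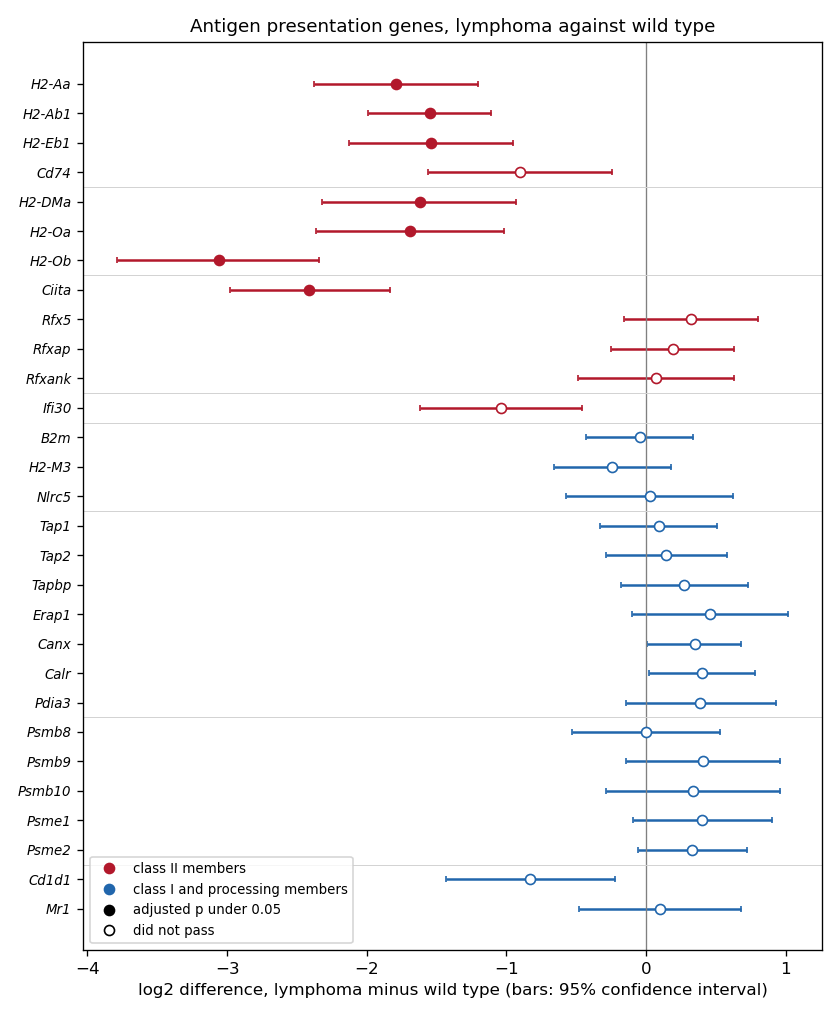
Log2 difference of each member, lymphoma minus wild type, with bars for the 95% confidence interval of limma (n = 2 arrays in each group). Filled points passed an adjusted p under 0.05. The 7 filled points are all class II genes, from -1.54 for H2-Eb1 to -3.06 for H2-Ob, and the class I and processing genes lie between -0.83 and 0.46.

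Promoters of class II genes are known for a shared layout of X and Y boxes, and those of called class II genes are shown here so that the layout can be read. RefSeq promoter windows of 300 bases (build GRCm38.p6, 250 bases before and 50 after the annotated start) were matched by symbol for 27 of the 34 members, the others being H2-Ab1, Cd74, Ciita, Rfxap, Nlrc5, Tap2 and Cd1d1. Each window was searched on both strands for an X core (GNAAC) followed after 20 to 30 bases by a Y box (TGATTGG). The motifs do not overlap. The gap was set after reading these promoters, so its presence in them is fixed by that choice. In the stretches that follow, read 5′ to 3′ on the gene's strand, capitals mark the X core and the Y box.
H2-Aa (chr17:34287857-34287914, minus strand): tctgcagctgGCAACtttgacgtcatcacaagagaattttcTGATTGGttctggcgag
H2-Eb1 (chr17:34305766-34305822, plus strand): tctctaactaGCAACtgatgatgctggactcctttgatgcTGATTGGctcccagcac
H2-Eb2 (chr17:34325533-34325589, plus strand): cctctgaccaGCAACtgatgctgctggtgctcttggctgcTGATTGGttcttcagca
H2-Oa (chr17:34092293-34092350, plus strand): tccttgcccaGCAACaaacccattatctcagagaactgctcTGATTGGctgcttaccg
H2-Ob (chr17:34238808-34238862, plus strand): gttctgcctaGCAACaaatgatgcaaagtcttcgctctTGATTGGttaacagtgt

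In these 5 genes the X core was the same 5 letters, and the gap to the Y box was 26 bases in H2-Aa and H2-Oa, 25 in H2-Eb1 and H2-Eb2 and 23 in H2-Ob. The X core began 81 bases before the start in H2-Aa and 132 bases before it in H2-Eb2. The arrangement stood in 5 of the 10 class II members with a window, the fifth being the unmeasured H2-DMb1, and in none of the 17 class I and processing members with one. It stood in 0.323% of all 32851 windows, while the Y box alone stood in 7.82% and the X core alone in 84.8%. A Y box, with or without an X core, stood in 7 of the 10 class II members with a window. It stood in 6 of the 17 class I and processing members, H2-D1, H2-K1 and H2-T23 among them. Tap1 and Psmb9 are also among them, and their windows overlap by 275 bases. The Y box of Psmb9 lies in the shared stretch, so it counts for both genes. The gap was set on class II promoters, so whether class I promoters hold both boxes at another distance was not tested. Of the called members with a window, H2-DMa did not have the X core and Y box at the searched distance. The letters of an interferon response element, searched as GAAANNGAA on both strands, stood in 4 of the 17 class I and processing windows, in none of the 10 class II windows and in 8.56% of all windows. They are shown in capitals for B2m, whose intensity overlapped between the groups, and the Y box of Psmb9, which has no X core at this distance, is shown beside it.
B2m (chr2:122147528-122147576, plus strand): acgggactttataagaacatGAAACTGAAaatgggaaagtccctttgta
Psmb9 (chr17:34187324-34187380, minus strand): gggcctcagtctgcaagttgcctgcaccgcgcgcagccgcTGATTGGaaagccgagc

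The fallen class II genes are neighbours of genes that did not pass. In the RefSeq annotation of GRCm38.p6, 17 of the 34 members lie on chromosome 17. Within the class II region the order runs from H2-Oa and H2-DMa through H2-DMb2 and H2-DMb1 to Psmb9, Tap1, Psmb8 and Tap2, and then to H2-Ob, H2-Ab1, H2-Aa, H2-Eb1 and H2-Eb2, which is no member. The 4 proteasome and transporter genes had differences of 0.41, 0.09, 0.00 and 0.14. The measured genes named on either side of them (H2-Oa, H2-DMa, H2-Ob, H2-Ab1, H2-Aa, H2-Eb1 and H2-Eb2) all fell, with differences between -1.54 and -3.06. The promoter windows of Psmb9 and Tap1, which are read in opposite directions, overlap by 275 bases.

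**Figure D3:**
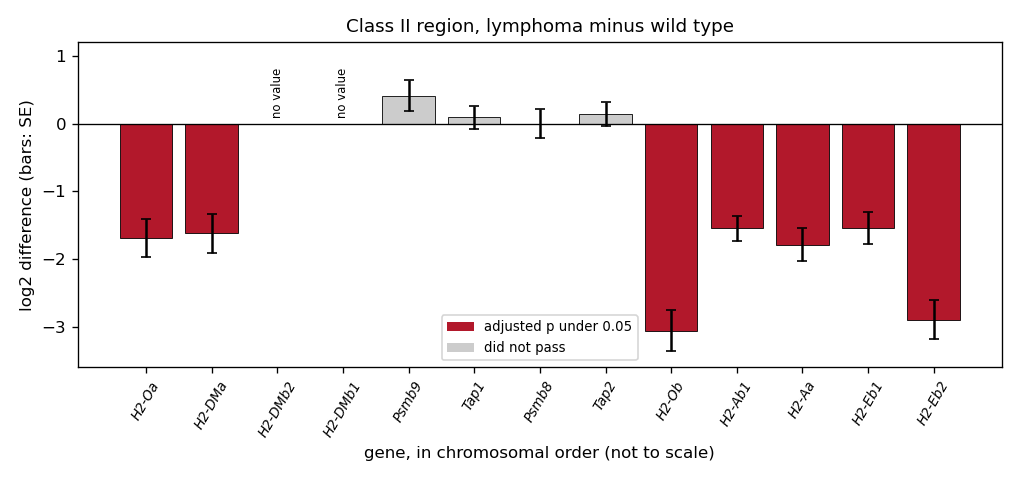
Log2 difference, lymphoma minus wild type, with bars for the SE (n = 2 arrays in each group), of the genes of the class II region in chromosomal order. Red bars passed an adjusted p under 0.05, and the 4 class I processing genes between H2-DMb1 and H2-Ob lie between 0.00 and 0.41.

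Other genes of the class II pathway were read from lists of related genes. Of 4 measured genes of the class II region and of class II turnover, 2 fell and none rose. Across all genes 2.46% fell and 1.82% rose. H2-Eb2, a further beta chain gene of the I-E group, had 2800 and 1848 in wild type and 371 and 249 in lymphoma, and fell by 2.90 (SE 0.29, limma adjusted p = 0.00646). Marchf1, the ubiquitin ligase that removes class II from the surface of presenting cells, fell by 1.15 (adjusted p = 0.0398), and its relative Marchf8 differed by 0.75 (adjusted p = 0.073 in limma) with both lymphoma values higher. H2-Ea, the I-E alpha chain, which C57BL/6 mice do not make, was dim on every array, between 27.7 and 47.7. Of 7 lysosomal proteases 1 fell, the cathepsin Ctsh, by 1.67 (adjusted p = 0.0114). Ctss, the cathepsin that trims the invariant chain in presenting cells, had 2192 and 1984 in wild type and 1416 and 1467 in lymphoma, a difference of -0.53 (SE 0.16, adjusted p = 0.169) that did not pass. None of 5 factors of the Y and X2 boxes was called in limma, with 0 at an unadjusted p under 0.05 (3119 of all 19938 genes). Their differences lay between -0.42 for Nfya and 0.54 for Nfyb.

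Costimulatory ligands of presenting cells were mixed. Of 6 measured, Cd86 and Icosl fell and none rose, against 2.46% and 1.82% of all genes. Cd86, a ligand of the T cell receptors CD28 and CTLA4, had 445 and 549 in wild type and 179 and 141 in lymphoma, a difference of -1.64 (adjusted p = 0.0132 in limma). Icosl, the ligand of ICOS, fell by 1.68 (adjusted p = 0.0118). Cd40 differed by -1.17 and Cd80 by 0.72, without passing. Of the receptors that T cells use to bind class II, Lag3 rose by 1.53 (SE 0.20, adjusted p = 0.0131) from 670 and 547 to 1599 and 1918, and Cd4, the coreceptor by which the cells were enriched, differed by 0.41 (adjusted p = 0.294) without overlap between the groups.

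Markers of the cells that carry class II in the spleen were lower on the same arrays. Of 16 measured B cell markers 12 fell and none rose, against 2.46% and 1.82% of all genes. Their median was -2.86, and their summed intensity was 33846 and 23334 in wild type and 7339 and 4521 in lymphoma. Of 16 dendritic cell markers 11 fell, with a median of -1.75 and sums of 10511 and 9376 in wild type and 2582 and 2459 in lymphoma. Of 15 macrophage and monocyte markers 10 fell, with a median of -1.34 and sums of 13209 and 13130 against 4001 and 5216. Of 7 plasma cell markers 3 fell, with a median of -0.99. No marker was at 0 on any array, and neither was any other probe set, the lowest deposited value being 2.5. The defining B cell genes Cd79a (4016 and 2175 in wild type, 519 and 168 in lymphoma) and Ms4a1 (2509 and 1767, then 385 and 120) were among the called markers, as were the dendritic cell genes Itgax, which fell by 2.72, and Flt3, which fell by 3.19, and the macrophage gene Adgre1, which fell by 3.22. Other markers of these lists did not fall in this way. The monocyte marker Ccr2 differed by 0.64 and the plasma cell marker Prdm1 by 0.53. Pou2af1 (-0.17, B cells), Zbtb46 (-0.09, dendritic cells) and Cd14 (-0.08, macrophages and monocytes) overlapped between the groups, and none of these markers was called. T cell markers had a median of 0.34, with 1 of 10 lower (Lat) and none higher. In bulk RNA, fewer cells of a type and less RNA per cell cannot be told apart. No gene of the lists of CD8 T and NK cells (6 markers), neutrophils (6) or erythroid cells and platelets (4) was called in limma. There 5, 3 and 0 genes had an unadjusted p under 0.05, against 3119 of all 19938 genes. The medians of these 3 lists were -0.98, 0.15 and -0.09. Of the 6 CD8 T and NK cell markers 5 had negative differences, and Eomes differed by 0.83. Both lymphoma values lay below both wild type values for 4 of these 6, as for 23.5% of all genes. The part of any of the cell types named here in the fall of the class II genes was not tested.

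Set beside these medians, the 8 measured class II chains, loading chains and Ciita had a median difference of -1.65. Cd74, at -0.90, lay above this median, and H2-Ob, at -3.06, and Ciita, at -2.41, lay below it. All 8 genes had both lymphoma arrays below both wild type arrays, as had 9 of all 12 measured class II members and 23.5% of all genes. The 8 genes are a chosen part of the class II side that leaves out Rfx5, Rfxap, Rfxank and Ifi30. The median over all 12 was -1.54.

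**Figure D4:**
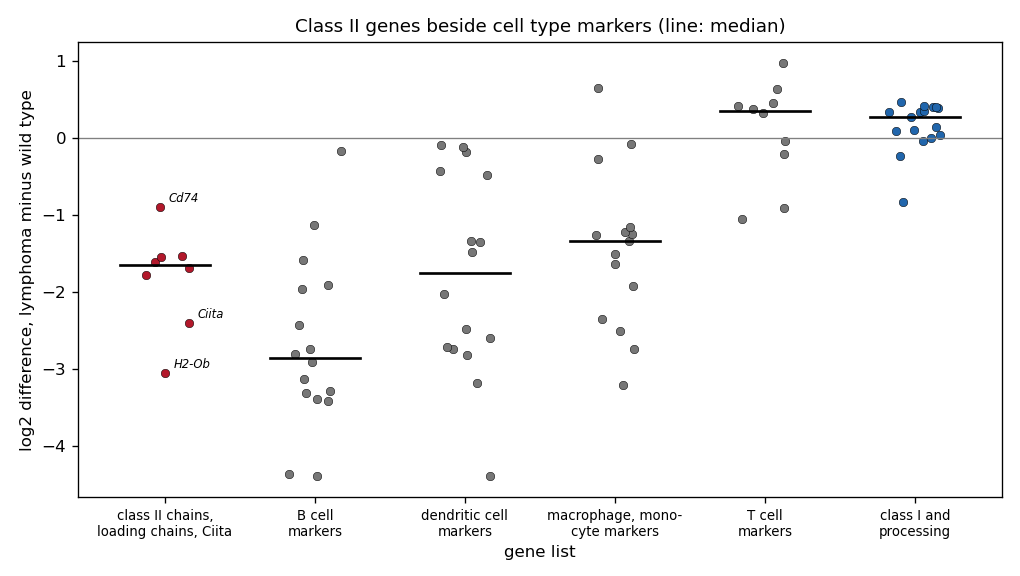
Log2 difference, lymphoma minus wild type, of single genes (points) with the median of each list (line). The 8 class II chains, loading chains and Ciita (median -1.65) lie among the values of the B cell (-2.86), dendritic cell (-1.75) and macrophage (-1.34) markers, and the medians of the T cell markers (0.34) and of the class I and processing members (0.27) lie above 0.

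The lymphoma arrays differed from each other, and not in the same way for every class II gene. All 4 class II chains were higher on lymphoma array 2 than on array 1, by 0.27 (H2-Ab1) to 0.69 (Cd74) on the log2 scale. H2-DMa was higher there by 0.26 and H2-Oa by 0.01. H2-Ob was lower on lymphoma array 2 by 0.82 and Ciita by 0.38, so the transactivator and the chains went opposite ways between these arrays. Of the 16 B cell markers, 14 were lower on lymphoma array 2, with a median of -1.20, and Cd22 (652 and 1590) and Blk were higher. The dendritic cell markers had a median of -0.03 and the macrophage and monocyte markers of 0.08. Of these 15 macrophage and monocyte markers, 10 were higher on array 2, Lyz2 (415 and 1436) and Cd14 (62.7 and 140) among them. The other 5 were lower there, with Vcam1 at -0.62, Ccr2 at -0.6 and Mrc1 at -0.43. These are comparisons of 1 array with 1 array and have no replicate check.

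**Figure D5:**
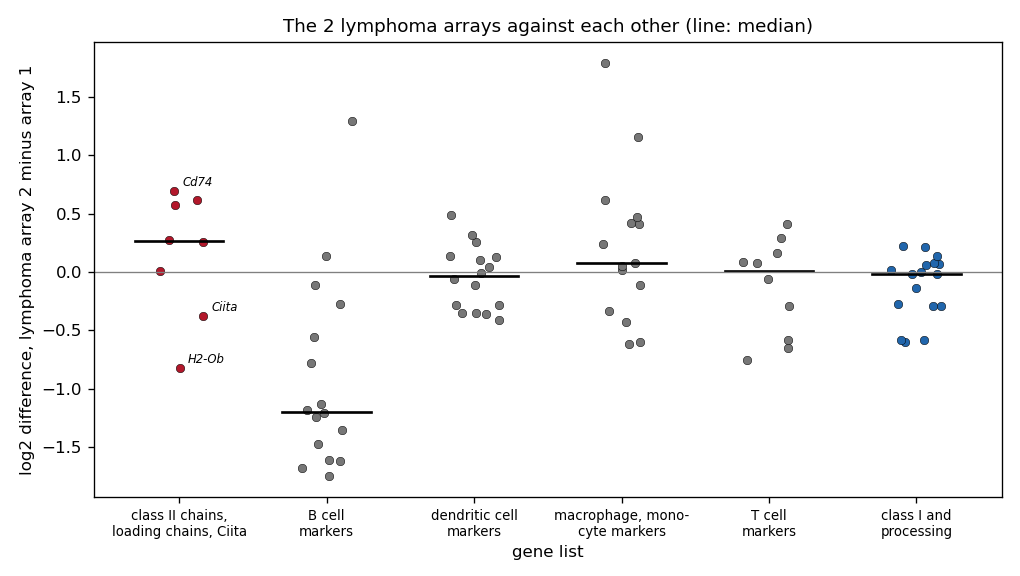
Log2 intensity on lymphoma array 2 minus that on lymphoma array 1 for single genes (points), with the median of each list (line) and no error, since each side is 1 array. Cd74 (0.69) lies at the top of the class II group and Ciita (-0.38) and H2-Ob (-0.82) at the bottom, beside a B cell marker median of -1.20.

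On the class I side, B2m, the light chain shared by class I molecules, had intensities of 9943 and 7939 on the wild type arrays and of 9033 and 8217 on the lymphoma arrays. The lymphoma values lay between the wild type values, and the difference was -0.04 (95% confidence interval -0.43 to 0.34, limma adjusted p = 0.95), or 0.03 with array medians subtracted. H2-M3, a class I-b chain that presents formylated peptides, had 1226 and 1081 in wild type and 980 and 966 in lymphoma, a difference of -0.24 (-0.66 to 0.18) that did not pass. Nlrc5, the transactivator of class I genes and a relative of CIITA, had 3229 and 2491 in wild type and 3537 and 2365 in lymphoma, with overlapping groups. It differed by 0.03 (-0.57 to 0.62, adjusted p = 0.982), and by -0.07 under quantile normalization. Nlrc5 is covered by 19 probe sets, whose differences ran from -0.16 to 0.30 with a median of 0.05. Lymphoma array 1 was above lymphoma array 2 in all 19, above both wild type arrays in 15, and lymphoma array 2 was below both wild type arrays in 13. The groups did not overlap in 1 of the 19.

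The genes that load class I molecules had positive differences in 7 of 7 cases, against 8740 of all 19938 genes, and none of the 7 passed. Tap1, a subunit of the peptide transporter, had 2797 and 2273 in wild type and 2700 and 2663 in lymphoma. Its partner Tap2 had 1107 and 1226 in wild type and 1194 and 1386 in lymphoma. Both overlapped between the groups, with differences of 0.09 (95% confidence interval -0.33 to 0.51) and 0.14 (-0.29 to 0.58). Tapbp, or tapasin, which bridges the transporter and the class I chain, had 2726 and 2068 in wild type and 2795 and 2950 in lymphoma, a difference of 0.27 (-0.18 to 0.73). Erap1, the aminopeptidase that trims peptides in the endoplasmic reticulum, had 910 and 652 in wild type and 1170 and 957 in lymphoma. Its difference of 0.46 (-0.10 to 1.02, limma adjusted p = 0.44) was the highest among the members.

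The chaperones of class I folding were higher on both lymphoma arrays without passing the test. Canx, or calnexin, had 4024 and 4107 in wild type and 5160 and 5168 in lymphoma, and Calr, or calreticulin, had 3485 and 3003 in wild type and 4178 and 4367 in lymphoma. Neither gene overlapped between the groups, and the differences of 0.35 (95% confidence interval 0.01 to 0.68, limma adjusted p = 0.298) and 0.40 (0.02 to 0.78, adjusted p = 0.284) did not pass after adjustment over all genes. Pdia3, the disulfide isomerase of the loading complex, had 3019 and 2075 in wild type and 3055 and 3538 in lymphoma, a difference of 0.39 (-0.14 to 0.93). Of 9 further genes of loading and trimming none was called in limma and 2 had an unadjusted p under 0.05 (Hspa5 and Npepps). They had 8 positive differences and values between -0.01 (Tpp2) and 0.61 (Npepps, limma adjusted p = 0.178). Of all 19938 genes, 3119 had an unadjusted p under 0.05 and 8740 had a positive difference.

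The immunoproteasome subunits, which replace their constitutive partners and are known to be induced by interferon gamma, were not called. Psmb8 had 1512 and 1063 in wild type and 1258 and 1279 in lymphoma, a difference of 0.00 (95% confidence interval -0.53 to 0.53) that was -0.08 under quantile normalization. Psmb9 had 1754 and 1232 in wild type and 2147 and 1781 in lymphoma, without overlap, and Psmb10 had 1358 and 871 in wild type and 1517 and 1242 in lymphoma, with overlap. Their differences were 0.41 (-0.14 to 0.96) and 0.34 (-0.29 to 0.96). Psme1, a subunit of the proteasome activator, had 2156 and 1552 in wild type and 2365 and 2476 in lymphoma, a difference of 0.40 (-0.09 to 0.90). Psme2, its partner, had 3280 and 2835 in wild type and 3644 and 4014 in lymphoma, a difference of 0.33 (-0.06 to 0.72). All 5 had lower values on wild type array 2 than on wild type array 1.

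Other proteasome genes also had positive differences, and 1 of them rose, as did 1.82% of all genes. Psmb5, Psmb6 and Psmb7, the subunits that the immunoproteasome forms replace, differed by 0.28, 0.48 and 0.42, and none passed. Of 15 other proteasome core, assembly and cap genes all 15 had positive differences, with a median of 0.41, against 8740 positive among all 19938 genes. The gene that rose was Psma6, a core alpha subunit, which had 886 and 945 in wild type and 2193 and 1846 in lymphoma and rose by 1.14 (SE 0.18, limma adjusted p = 0.0238). The median over the immunoproteasome members was 0.34, and the difference between these lists was not tested.

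Neither of the class I-like members passed the test. Cd1d1, which presents lipids to natural killer T cells, had 458 and 392 in wild type and 294 and 194 in lymphoma. Both lymphoma values were lower, and the difference of -0.83 (SE 0.25, 95% confidence interval -1.43 to -0.22, limma adjusted p = 0.161) did not pass. The difference was -1.13 with array 1 of the lymphoma group left out and -0.52 with array 2 left out. Mr1, which presents vitamin metabolites to mucosal-associated invariant T cells, had 921 and 829 in wild type and 1148 and 765 in lymphoma, where the lymphoma values lay on either side of the wild type values. Of 11 measured further class I and class I-like chains 1 fell and none rose, against 2.46% and 1.82% of all genes. The 1 that fell was Hfe, a regulator of iron uptake, by 1.42 (adjusted p = 0.0122 in limma). H2-Q4 differed by 0.18 and H2-T10 by 0.00, and probe sets of these closely related chains can share signal with their relatives.

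The interferon gamma axis, which is known to induce both Ciita and the immunoproteasome, held no called gene among 10 measured in limma. An unadjusted p under 0.05 was found for 5 of the 10 and for 3119 of all 19938 genes. Irf8 differed by -1.21 (adjusted p = 0.151 in limma), with 2240 and 1848 in wild type and 1282 and 606 in lymphoma. The receptor chains Ifngr1 and Ifngr2 differed by -0.58 and -0.61, with both lymphoma values lower for each. The cytokine Ifng had 484 and 894 in wild type and 1241 and 1066 in lymphoma, a difference of 0.81 (adjusted p = 0.274), and the target gene Irf1 differed by 0.03.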

How the data were processed

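Total RNA of 4 samples was labelled with biotin and hybridised to 1 array each. The deposited table holds a linear intensity for every probe set on every array, made by the authors with Affymetrix Expression Console per the submitters' processing notes. How it summarised and normalized the probes is not known here, so shared signal, background and compression of dim probe sets can affect differences.

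Of 35556 probe sets, 21789 had 1 gene symbol in the platform annotation, 1621 had several and 12146 were not listed. Values were put on the log2 scale with no pseudocount and no filter on dim genes. The fit in limma 3.58.1 (run in R 4.3.3) had a term for group and a variance trend; tests were two-sided, with the Benjamini-Hochberg method over 19938 genes. There were 2 residual and 4.24 prior degrees of freedom. Exact permutation of 2 against 2 arrays cannot go below p = 0.333 and was not used. The procedure was tested on simulated data. Members and gene lists were chosen with earlier results of these data known. All members are accounted for, and of other lists called genes and up to 4 examples by size or role are named. Number of arrays limits every precision. Figures were drawn with matplotlib 3.10.9.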

Additional observations from a re-analysis of the deposited data

How the results depend on the processing

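The 7 called class II members kept their calls and direction in fits with array medians subtracted, under quantile normalization, without the variance trend or with a robust one, with probe sets averaged, with the genes of lowest mean level left out, and with the replicate block. Ifi30 was added under quantile normalization and with the replicate block, which gave 8 called members and 984 called genes in all. The labels do not say that a number marks a shared litter or day, and deviations of same-numbered arrays correlated at 0.228 across genes. At an adjusted p under 0.01 there were 247 called genes and 3 called members, all class II (H2-Ab1, H2-Ob and Ciita), and at 0.10 there were 1357 and 8. Leaving out 1 array gave between 0 and 1852 called genes, between 0 and 9 called members, between 0 and 9 called class II members and between 0 and 1 called class I and processing member (Cd1d1 without lymphoma array 1). The counts of 0 called genes and 0 called members came without a wild type array. Signs turned for members near 0: under quantile normalization for Rfxank (-0.01), Nlrc5 (-0.07) and Psmb8 (-0.08), and with array medians subtracted for B2m (0.03). With 1 array left out the difference ran from -0.17 to 0.31 for Rfxank, from -0.21 to 0.12 for B2m, from -0.26 to 0.32 for Nlrc5, from -0.06 to 0.24 for Tap1, from -0.25 to 0.26 for Psmb8 and from -0.19 to 0.39 for Mr1. The causes were not tested.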

Other observations

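The wild type arrays also differed from each other in these genes. All 12 measured class II members were lower on wild type array 2 than on array 1, with a median of -0.38 on the log2 scale, and the widest gaps were those of H2-DMa (-0.80) and H2-Oa (-0.77). All 16 measured B cell markers were lower on wild type array 2 (median -0.51), as were 15 of 17 class I and processing members (median -0.32), while the median over all genes was -0.03 and that of the macrophage and monocyte markers was -0.06. These are comparisons of 1 array with 1 array.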
